A study of Mus musculus with 35 samples.

Results

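The genes described here are 9 markers of epithelial cells, which in this model stand for the implanted tumor cells: the keratins Krt7, Krt8, Krt18 and Krt19, the adhesion molecules Epcam and Cdh1, the claudins Cldn4 and Cldn7, and mesothelin (Msln). They were chosen by name, as the rows of the count table whose Ensembl identifier maps to one of these symbols, and make up 9 of 53379 genes. Mice carried orthotopic pancreatic tumors grown from T110299, a single cell line derived from a pancreatic tumor of a genetically engineered mouse in which Ptf1a-Cre drove recombination in the pancreas. They were given poly(I:C)c, 50 µg of the double-stranded RNA poly(I:C) complexed with polyethylenimine, intravenously on days 18 and 20 after tumor induction, or served as untreated controls, which per the labels received glucose. From spleen and tumor, live CD11b+ cells were sorted into polymorphonuclear myeloid-derived suppressor cells (PMN-MDSC, Ly6G+ with low Ly6C) and monocytic ones (M-MDSC, Ly6C high, Ly6G-), and pieces of untreated tumor were lysed whole (bulk tumor). Of 35 libraries, 34 were used in 9 groups of 4, except that PMN-MDSC from spleens of treated mice had 3 and M-MDSC from tumors of treated mice kept 3 after 1 library with 10 counts was left out. No bulk library came from treated mice, so shares of bulk tumor given for treated groups refer to untreated tumors.

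Keratins form the intermediate filaments of epithelial cells. A type II keratin (Krt7, Krt8) pairs with a type I keratin (Krt18, Krt19), and the pair Krt8 and Krt18 marks simple epithelia such as pancreatic ducts, where Krt7 and Krt19 are also made. E-cadherin (Cdh1) ties neighbouring epithelial cells together at adherens junctions and is also known from Langerhans cells and some macrophages. EpCAM is a surface glycoprotein of epithelia, claudins seal tight junctions, and mesothelin is a surface protein of mesothelium that many pancreatic carcinomas carry. Tumor cells that shift towards a mesenchymal state are known to lose several of these proteins.

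On GRCm38, with GENCODE M21 gene models, Krt8 lies on the minus strand at chr15:101996698-102004482 and Krt18 on the plus strand at chr15:102028180-102032027, so the genes of this filament pair stand head to head with 23.7 kb between them. Krt7 lies on the same chromosome at chr15:101411043-101430313 and Krt19 at chr11:100140810-100148665. Cdh1 spans chr8:106603351-106670246, Epcam chr17:87635979-87651129, Msln chr17:25748613-25754378, Cldn4 chr5:134945119-134946934 and Cldn7 chr11:69964779-69967885. No member shares bases with another gene on its own strand, and Krt7 and Krt8 each overlap 1 gene on the opposite strand, which matters little as the counting was by strand. The table also holds a processed copy of Krt8, Krt8-ps, whose counts in bulk tumor came to 18.8% of those of Krt8, so the level of Krt8 is uncertain by about that share of its reads.

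RefSeq promoter sequences (GRCm38.p6) were at hand for 6 members. Runs before the RefSeq transcription start are shown for the pair Krt8 and Krt18, which moved together across libraries, and for Epcam and Cldn4, which were near 0 in the tumor. Letters lying in an annotated exon were left off, and capitals mark CACCTG or its reverse complement CAGGTG, the E-box that repressors of the ZEB and SNAI families read in promoters such as that of Cdh1.
Krt8, chr15:102004483-102004592, minus strand: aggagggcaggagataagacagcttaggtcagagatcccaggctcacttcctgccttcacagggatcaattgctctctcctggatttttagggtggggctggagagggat
Krt18, chr15:102027966-102028179, plus strand: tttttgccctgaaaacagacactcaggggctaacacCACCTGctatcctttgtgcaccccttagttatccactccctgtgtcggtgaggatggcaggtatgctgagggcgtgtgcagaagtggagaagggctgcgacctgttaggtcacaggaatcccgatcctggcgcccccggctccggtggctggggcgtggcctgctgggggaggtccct
Epcam, chr17:87635729-87635978, plus strand: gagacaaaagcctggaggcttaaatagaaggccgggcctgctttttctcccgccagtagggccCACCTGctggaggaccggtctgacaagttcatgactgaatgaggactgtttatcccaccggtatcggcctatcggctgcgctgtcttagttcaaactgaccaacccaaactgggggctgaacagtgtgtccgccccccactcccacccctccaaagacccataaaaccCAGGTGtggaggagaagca
Cldn4, chr5:134946935-134947184, minus strand: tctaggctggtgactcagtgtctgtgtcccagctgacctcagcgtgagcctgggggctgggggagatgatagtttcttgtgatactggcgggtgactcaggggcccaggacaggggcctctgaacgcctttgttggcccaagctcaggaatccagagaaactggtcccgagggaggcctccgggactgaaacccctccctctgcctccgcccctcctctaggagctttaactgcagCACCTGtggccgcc
Searched on both strands over the 250 bases before the start, the E-box stood 214 bases before the start of Krt18, 187 and 19 before that of Epcam and 14 before that of Cldn4. The window of Krt8 held a copy 111 bases before its start, in the part left off, that of Krt7 one at 44, and 1 of the 2 windows of Cldn7 copies at 97 and 57. Of all 32851 promoter entries, 17.2% held the hexamer in such a window, against 6 of the 7 entries for members. The letters were thus present before genes with high levels in the tumor and before genes near 0, and say nothing about binding.

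The bulk tumors contained far more RNA of some members than of others. To compare levels between genes, counts were scaled to fragments per kilobase of summed exon length and library total (FPKM). On this scale Krt18 stood at 1259.7 ± 227 (SD, n = 4 here and in the rest of this paragraph), Krt8 at 1152 ± 265 and Krt19 at 421 ± 48.9. Krt18 and Krt8 did not differ beyond their spread, and both lay above Krt19 in each library. Cdh1 followed at 165 ± 30.7 FPKM and Msln at 36.8 ± 7.36. Krt7, the partner of the simple keratins in ducts, reached only 2.79 ± 1.25 FPKM. Epcam was at 0.547 ± 0.462, Cldn4 at 0.115 ± 0.150 and Cldn7 at 0.0340 ± 0.0681 FPKM, and these neighbours in the order overlapped. In counts, the bulk libraries held 11, 1, 5 and 22 fragments of Epcam, 0, 1, 0 and 5 of Cldn4 and 0, 1, 0 and 0 of Cldn7, out of 3771590 to 8886115 counts per library. Of the genes labelled as those of epithelial tumor cells, the 3 keratins Krt8, Krt18 and Krt19, Cdh1 and Msln were thus well expressed in these tumors. Krt7 was weakly so, and the claudins and Epcam were not. Which cells made this RNA was not tested.

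**Figure D1:**
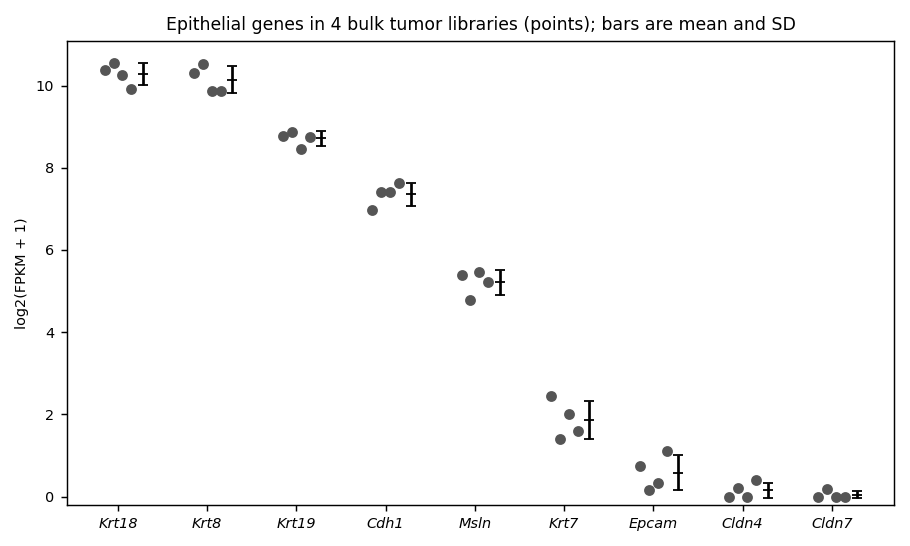
Level of each of the 9 genes in the 4 bulk tumor libraries, as log2(FPKM + 1), with the mean and SD of these log values beside the points. Krt18, Krt8 and Krt19 lie highest, Cdh1 and Msln follow, and Epcam, Cldn4 and Cldn7 lie close to 0.

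In CPM, counts scaled to the library total, which serve to compare samples, Krt8 was at 2482, 2883, 1841 and 1818 in the bulk libraries 1 to 4, where numbers only name libraries. Krt18 was at 1919.6, 2171, 1758 and 1392 CPM, and Krt19 at 804, 866, 653 and 802. Both members of the pair were highest in library 2, which was the shallowest of the bulk libraries. Cdh1 was ordered otherwise, with 567.9, 768, 773 and 909 CPM, and its counts per count of Krt8, Krt18 and Krt19 together were 0.109 in library 1 and 0.227 in library 4. Msln was at 126, 81.7, 132 and 110.5 CPM. Krt7 had the widest spread of these 6 relative to its mean, at 31.3, 11.7, 21.4 and 14.3 CPM.

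The other epithelial genes were described by 3 lists. Of 39 junction and cytoskeleton genes, 36 had over 3 counts in at least 1 bulk library, led by Dsp (desmoplakin, the desmosomal plaque protein) at 1413 CPM, Ctnna1 (alpha-catenin, which links cadherins to actin) at 873 and Krt20 (an intestinal-type keratin) at 702. Of 16 transcription and splicing regulators of epithelia, 14 did so, led by Onecut2, a liver and pancreas developmental factor, at 953 CPM, Elf3 at 139 and Klf5 at 129. Of 21 surface and secreted proteins, 19 did so, led by Lgals4 at 177 CPM, Muc1 (a transmembrane mucin) at 146 and Spint2 at 73.2. Genes of the epithelial-mesenchymal transition were present beside them, with Vim (vimentin) at 3936 CPM, Fn1 (fibronectin) at 2883 and Zeb2 at 165. All 12 of these had over 3 counts in at least 1 bulk library. They summed to 5201 to 10304 CPM in bulk tumor. In sorted cells of untreated tumors they summed to 5132 to 10056 CPM in PMN-MDSC and 11933 to 15522 in M-MDSC. Which cells of the bulk tumor made this RNA was not tested. In bulk tissue, fewer cells of a type and less RNA per cell cannot be told apart.

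Markers of other cells were checked in the same libraries. The summed level of 12 fibroblast genes was 1082 to 1333 CPM in bulk tumor, that of 8 monocyte and macrophage genes 141 to 252 CPM, and that of 8 neutrophil genes 6.48 to 14.3 CPM, with Ly6g and Retnlg at 0 in all 4 libraries. In PMN-MDSC of untreated tumors the neutrophil genes summed to 996 to 3237 CPM, below the monocyte and macrophage genes at 3619 to 4909 CPM, so neutrophil markers did not lead in this gate. After treatment the ranges were 2930 to 9033 and 2737 to 5955 CPM. In tumor M-MDSC the neutrophil genes summed to 185 to 485 CPM in untreated and 203 to 620 CPM in treated mice, and the monocyte and macrophage genes to 3935 to 4835 and 4054 to 7981 CPM. In spleen the neutrophil genes reached 12897 to 31767 CPM in PMN-MDSC and 669 to 3350 CPM in M-MDSC. Markers of the mesothelium, where Msln is also made, summed to 0.265 to 2.52 CPM in bulk tumor over 6 genes, of which Upk1b was at 0 in all 4 libraries. Their part in the level of Msln was not tested.

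The first question was how much of the epithelial signal the sorted cells of untreated tumors carried. Krt8, Krt18, Krt19, Cdh1 and Msln were readily counted in sorted PMN-MDSC from tumors, at 1.72% to 20.5% of their bulk level by library. Krt8 was at 246, 152, 38.8 and 57.9 CPM in libraries 1 to 4, which is 10.9%, 6.72%, 1.72% and 2.56% of the mean in bulk tumor. Krt18 was at 224, 113, 37.2 and 57.9 CPM and Krt19 at 146, 99.7, 13.6 and 28.5. Library 1 was highest and library 3 lowest for each of these 3 keratins, and also for Msln, at 23.05, 14.1, 3.20 and 4.27 CPM. In this group library 1 held the highest level of all 6 members that had over 3 counts.

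Within a library, the shares of bulk tumor were of one order. Over the 4 libraries, the mean share was 5.48% ± 4.23 (SD) for Krt8, 5.96% ± 4.62 for Krt18, 9.21% ± 7.95 for Krt19, 9.90% ± 8.28 for Msln and 10.98% ± 6.66 for Cdh1. The 3 leading genes of each list spread more widely. Their shares were 2.56% for Dsp, 20.0% for Ctnna1 and 3.54% for Krt20 among the junction genes, 4.00% for Onecut2, 9.11% for Elf3 and 13.9% for Klf5 among the regulators, and 7.82% for Lgals4, 20.7% for Muc1 and 15.3% for Spint2 among the surface and secreted proteins. The counts of Krt18 per count of Krt8 were 0.743 to 1, against 0.753 to 0.955 in bulk tumor, while Krt19 per Krt8 was 0.351 to 0.657, against 0.301 to 0.441. Acinar markers moved with the tumor libraries too: 11 genes of pancreatic acinar cells summed to 21.3 to 128 CPM in this group, against 6.63 to 24.04 in bulk tumor and at most 4.48 in any spleen library. Fibroblast genes summed to 38.0 to 80.1 CPM. Sorting on CD11b should remove epithelial, acinar and fibroblast cells. The study's methods report a mean contamination by tumor cells under 1% in tumor MDSC, judged by the keratins Krt8 or Krt18. How that value was scaled is not stated in those methods, so it cannot be set directly against the shares given here. The part of any such cells that remained was not tested here.

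**Figure D2:**
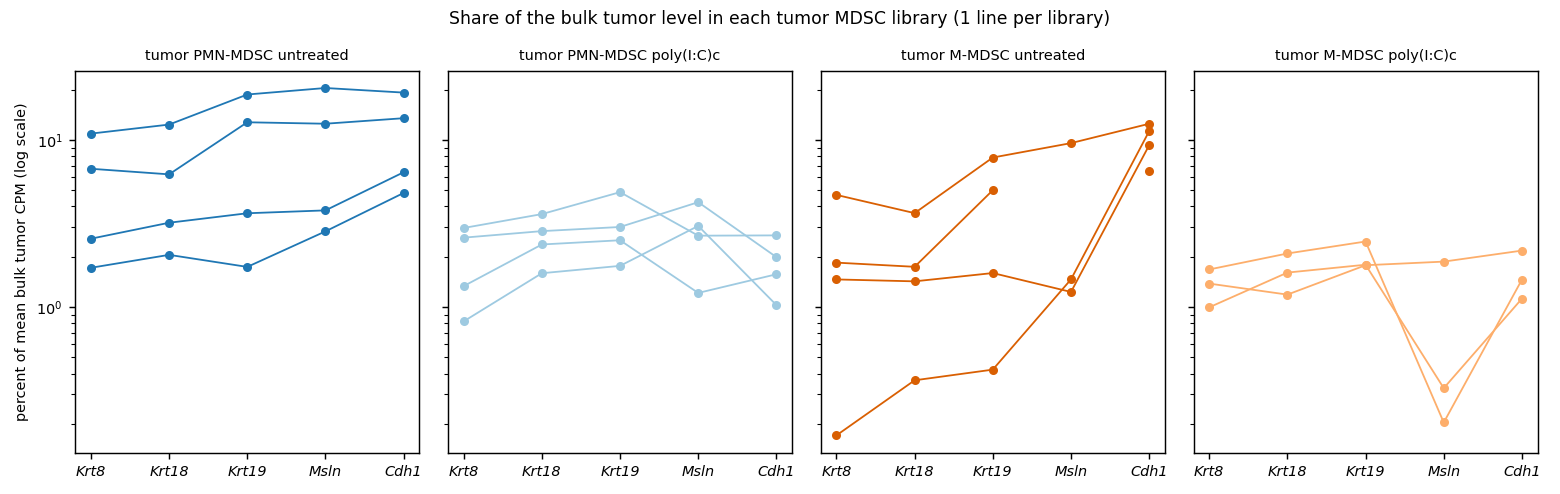
Percent of the mean bulk tumor CPM for Krt8, Krt18, Krt19, Msln and Cdh1 in each tumor MDSC library, on a log axis, with 1 line per library and 1 panel per group. The value of 0 for Msln in 1 untreated M-MDSC library is not drawn, and Cdh1 stands above the keratins in the untreated M-MDSC panel.

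Genes were called where edgeR's quasi-likelihood test gave an adjusted p below 0.001 and the fold change reached 2. By this rule, Krt8, Krt18, Cdh1, Krt7 and Msln were higher in bulk tumor than in tumor PMN-MDSC, where 40.1% of all 11138 genes passed. Of these, Krt7 with 596 and 14 counts and Msln with 3402 and 81 passed the filter on low counts, a mean of 25, through the bulk libraries alone, so their calls add nothing to a count of members. Krt8 was higher by 3.91 on the log2 scale (SE 0.57, adjusted p = 1.7e-04), Krt18 by 3.79 (SE 0.52, adjusted p = 1.0e-04), Cdh1 by 2.89 (SE 0.40, adjusted p = 8.4e-05), Krt7 by 3.18 (SE 0.59, adjusted p = 5.4e-04) and Msln by 3.11 (SE 0.49, adjusted p = 2.7e-04). Krt19, at 3.16 (SE 0.66), had an adjusted p of 0.00232 in edgeR, and was called in DESeq2 (adjusted p = 9.6e-06). Without library 1 of PMN-MDSC the differences of Krt8, Krt18 and Msln came to 4.45, 4.39 and 3.71. When genes with low counts were kept in the fit, Krt8 (adjusted p = 0.00296) and Krt18 (adjusted p = 0.00112) were not called. The median difference over all genes tested was 0.085, and 66.7% of them did not overlap between the groups. Epcam, Cldn4 and Cldn7 were too low to be tested. Of the lists, 25 junction and cytoskeleton genes, 11 regulators and 11 surface and secreted proteins were tested, many of them, like Krt7 and Msln, only through the bulk libraries. A mean of 25 counts in both groups, a choice made after seeing the data, was met by 12, 3 and 5 of them. Of the 12 junction genes, 8 were higher in bulk tumor and 2 lower (Krt80 and Lamb3, named after their values were seen). Of the 3 regulators, Klf5 and Onecut2 were higher and Rbpj lower, and of the 5 surface and secreted proteins Lgals4 was higher and Spint1 lower, named likewise.

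M-MDSC from the same tumors carried the keratins at lower mean levels and Cdh1 at a similar one. Krt8 was at 3.85, 106, 33.0 and 41.6 CPM, Krt18 at 6.60, 66.0, 25.8 and 31.5, and Krt19 at 3.30, 61.3, 12.5 and 39.1. Library 1 thus lay well below the others for all 3, with 25 counts of the 3 keratins in all. Cdh1 was at 85.2, 94.4, 70.2 and 49.2 CPM, a range of less than 2-fold with library 1 among the upper values. Msln was at 1.65, 10.8, 1.39 and 0 CPM. As shares of bulk tumor these were 2.04% ± 1.91 (SD, n = 4) for Krt8, 1.79% ± 1.37 for Krt18, 3.72% ± 3.37 for Krt19, 3.07% ± 4.38 for Msln and 9.90% ± 2.62 for Cdh1.

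Against bulk tumor, Krt8, Krt18, Krt19, Msln and Cdh1 were called lower in M-MDSC, with 41.9% of 11022 genes called. Msln with 24 counts and Krt7 with 21 in M-MDSC were again tested only through the bulk libraries. The log2 differences were 5.44 for Krt8 (SE 0.73, adjusted p = 6.9e-05), 5.63 for Krt18 (SE 0.55, adjusted p = 3.4e-06), 4.65 for Krt19 (SE 0.65, adjusted p = 8.8e-05), 4.89 for Msln (SE 0.54, adjusted p = 9.6e-06) and 3.13 for Cdh1 (SE 0.24, adjusted p = 5.5e-07). Krt7 missed the threshold in edgeR at 2.47 (SE 0.56, adjusted p = 0.00207), and was called in DESeq2 (adjusted p = 7.9e-05). Without library 2 of M-MDSC, which was highest for the keratins, Msln and Cdh1, the differences of Krt8, Krt18, Krt19 and Msln came to 6.31, 6.28, 5.47 and 6.25. When genes with low counts were kept in the fit, Krt8 (adjusted p = 0.00317) and Krt19 (adjusted p = 0.00369) were not called and Krt7 was. The median over all genes tested was 0.17. Of the lists, 9 junction genes, 1 regulator and 3 surface and secreted proteins had a mean of 25 counts in both groups. Of the 9, 6 were higher in bulk tumor and 1 lower (Krt80), while Rbpj and Spint1 were lower, named after their values were seen, and the other surface genes were not called.

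Set side by side, the sorted populations of untreated tumors did not differ in any member beyond the criteria: 0 of 4 members tested were called between PMN-MDSC and M-MDSC, with 1.65% of 7623 genes called. The log2 differences were 1.49 for Krt8 (SE 0.94, adjusted p = 0.371), 1.80 for Krt18 (SE 0.79, adjusted p = 0.194), 1.44 for Krt19 (SE 1.04, adjusted p = 0.440) and 0.17 for Cdh1 (SE 0.40, adjusted p = 0.826). At an unadjusted p under 0.05 none of the 4 passed, while 2115 of the 7623 genes did, and DESeq2 called none. The groups overlapped for each of them. By the numbers in the sample titles, the same 4 mice gave both populations, and also the untreated spleen and bulk tumor libraries. The tests between groups take these libraries as independent, since columns were assigned to groups by name and not matched to mice. A steady difference within mice could thus be missed. In treated mice too the numbers of the titles recur in tumor and spleen. Standard errors this wide leave room for no difference as well as for one of several fold. Without library 1 of PMN-MDSC the difference of Cdh1 turned to -0.22.

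Cdh1 and the keratins stood in different proportions in different samples. In bulk tumor there were 0.109 to 0.227 counts of Cdh1 per count of Krt8, Krt18 and Krt19 together. In untreated tumor PMN-MDSC the ratio was 0.235, 0.280, 0.406 and 0.336 in libraries 1 to 4, all above the bulk range. In untreated tumor M-MDSC it was 6.20, 0.405, 0.984 and 0.438, again all above it, and highest in the library with 25 keratin counts. In the treated groups it was 0.112 to 0.128 in PMN-MDSC and 0.116 to 0.247 in M-MDSC, within or next to the bulk range. Put as shares of bulk tumor, the share of Cdh1 was 1.76 to 2.80 times that of Krt8 in untreated PMN-MDSC and 2.67 to 66.2 times in untreated M-MDSC, against 0.765 to 1.25 and 0.870 to 1.58 times after poly(I:C)c. These ratios are a description of single libraries and were not tested.

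**Figure D3:**
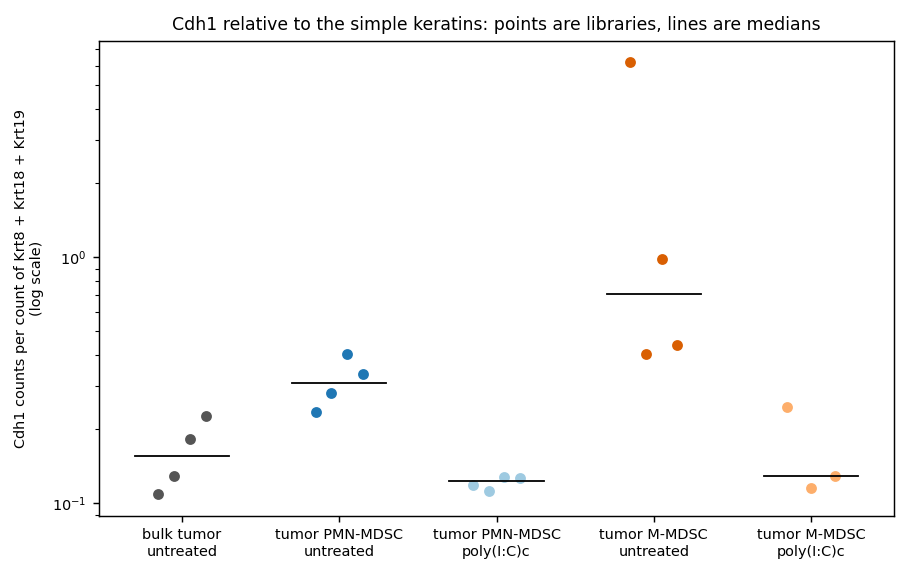
Counts of Cdh1 per count of Krt8, Krt18 and Krt19 together in each bulk tumor and tumor MDSC library, on a log axis; lines are medians. All 8 untreated MDSC libraries lie above the highest bulk value of 0.227, and 6 of the 7 treated ones at or below 0.129.

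The second question was what poly(I:C)c changed. In tumor PMN-MDSC of treated mice, Cdh1 was at 20.3, 15.02, 11.9 and 7.75 CPM, below each of the untreated values of 145, 102, 36.4 and 48.4 CPM. The log2 difference was -2.61 (SE 0.44, adjusted p = 0.0108 in edgeR), a 6.11-fold lower level that did not meet the threshold of 0.001. In tumor M-MDSC, Cdh1 was at 16.4, 11.02 and 8.47 CPM after treatment against 49.2 to 94.4 without, a log2 difference of -2.75 (SE 0.31, adjusted p = 0.00483), or 6.71-fold, again without overlap. The groups did not overlap for 11.7% of genes tested in PMN-MDSC and 19.8% in M-MDSC. In edgeR, at an adjusted p under 0.05 with the 2-fold minimum, Cdh1 was the 1 member of 4 tested that passed in either population. At that limit 2.68% of genes passed in PMN-MDSC and 2.63% in M-MDSC. DESeq2, the tool of the study, gave adjusted p-values of 1.6e-07 and 2.8e-13 and so called Cdh1 in both. So did 1 edgeR fit of all 9 groups (adjusted p = 2.5e-04 and 4.0e-04). The difference held when any 1 library was left out, at -2.87 to -2.22 in PMN-MDSC and -3.03 to -2.55 in M-MDSC, with adjusted p-values of 0.00711 to 0.0388 and 0.00461 to 0.0280.

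In edgeR the keratins passed in neither population. DESeq2 gave adjusted p-values of 0.0430 for Krt8, 0.0863 for Krt18 and 0.0584 for Krt19 in tumor PMN-MDSC. Krt8, at a log2 difference of -1.58, thus passed there at 0.05 but not at 0.001. In tumor M-MDSC the DESeq2 adjusted p-values were 0.693, 0.903 and 0.522. In tumor PMN-MDSC, Krt8 was at 67.1, 58.7, 30.1 and 18.5 CPM after treatment and Krt19 at 38.1, 23.6, 19.6 and 13.8, ranges that overlap the untreated ones. The log2 differences were -1.55 for Krt8 (SE 0.59, adjusted p = 0.214), -1.23 for Krt18 (SE 0.49, adjusted p = 0.225) and -1.62 for Krt19 (SE 0.67, adjusted p = 0.245). In tumor M-MDSC they were -0.66 (SE 0.75, adjusted p = 0.691), -0.20 (SE 0.58, adjusted p = 0.890) and -0.92 (SE 0.76, adjusted p = 0.572). With untreated library 2 left out, the M-MDSC differences of Krt8 and Krt18 turned to 0.17 and 0.41, so even their direction rested on 1 library. By the criterion of 0.001, 0 of 4 members were called in either population, where 0.241% and 0.0120% of genes were called. At an unadjusted p under 0.05, all 4 passed in PMN-MDSC and Cdh1 alone in M-MDSC, as did 1508 of 8308 and 1606 of 8360 genes. By an interaction term, none of the 4 treatment differences passed for a gap between the populations at an adjusted p under 0.05, where 0.0239% of genes did, and that of Cdh1 was apart by 0.13 (SE 0.58, adjusted p = 0.969).

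**Figure D4:**
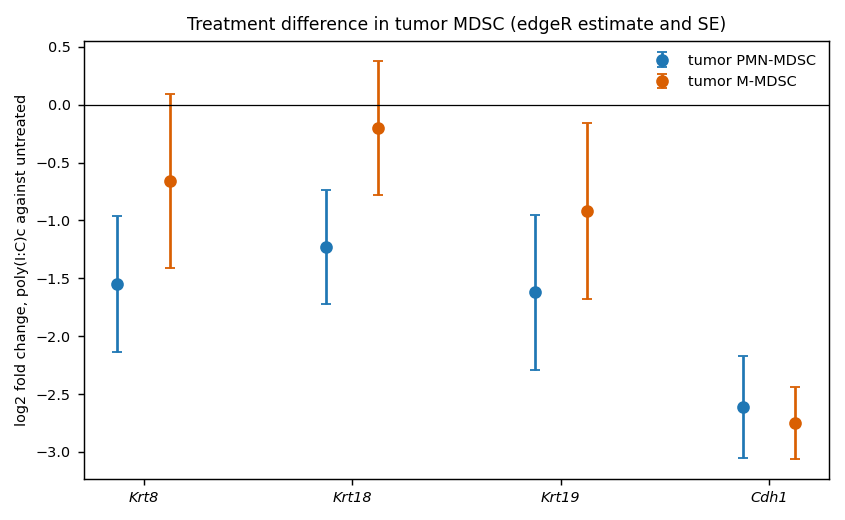
Log2 fold change of poly(I:C)c against untreated for Krt8, Krt18, Krt19 and Cdh1 in tumor PMN-MDSC and tumor M-MDSC; bars are the standard errors of edgeR. Cdh1 stands at -2.61 and -2.75, below the 3 keratins in both populations.

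Among the lists, 0 of 13 junction genes tested, 0 of 3 regulators and 0 of 5 surface and secreted proteins passed in tumor PMN-MDSC after treatment, with medians of -0.59, -0.54 and -0.65 against 0.0063 over all genes tested. In tumor M-MDSC 0 of 10, 0 of 1 and 0 of 4 passed, with medians of -0.10, -1.28 and 0.15. At the looser limit of 0.05, Areg (amphiregulin, a growth factor of the EGF family) was lower in PMN-MDSC and Rbpj in M-MDSC, and no other gene of the 3 lists passed; both were named after their values were seen. The leading genes of the lists were not alike in PMN-MDSC. Muc1 was at 30.2 ± 29.1 CPM (SD, n = 4) in untreated and 4.96 ± 1.37 in treated mice, Lgals4, a lectin of digestive epithelia, at 13.8 ± 10.6 and 4.74 ± 1.37, Spint2 at 11.2 ± 6.20 and 6.89 ± 3.15, and Klf5 at 17.98 ± 6.76 and 18.7 ± 7.20. The summed level of all 21 surface and secreted proteins was 147 to 431 CPM in untreated and 311 to 1982 in treated PMN-MDSC, with medians of 381 and 838. The sum of the 39 junction genes was 823 to 1168 and 659 to 766 CPM, and that of the 16 regulators 307 to 600.4 and 239 to 298. The sum of the surface and secreted proteins is not specific to epithelial RNA. In spleen PMN-MDSC it was 1586 to 3229 CPM in untreated and 3318 to 8107 in treated mice, against 405 to 734 in bulk tumor. The median share of bulk tumor over the genes of this list was lower in treated than in untreated tumor PMN-MDSC. Which cells made the RNA behind the higher sum was not tested. Fibroblast genes summed to 47.9 to 162 CPM in treated tumor PMN-MDSC against 38.0 to 80.1 in untreated ones. In tumor M-MDSC they summed to 21.1 to 93.2 against 7.57 to 49.2 CPM. Acinar genes summed to 23.7 to 42.2 CPM in treated PMN-MDSC, against the 21.3 to 128 given above for untreated ones, with medians of 28.3 and 64.7. Endothelial genes summed to 102 to 234 CPM in treated and 30.3 to 80.9 in untreated M-MDSC, without overlap, and the neutrophil genes of PMN-MDSC given above were higher in 3 of the 4 treated libraries than in any untreated one. Their part in the treatment differences was not tested. Fn1, which macrophages make as well, was at 4815 ± 1555 CPM in untreated and 672 ± 393 in treated PMN-MDSC, and at 7337 ± 1311 and 996 ± 907 (n = 3) in M-MDSC. It was not called at 0.001, but passed at an adjusted p under 0.05 as lower in both populations, as Cdh1 did. After treatment 0 of 4 members were called between the sorted populations (0.00% of genes, no gene at all), with 34 genes passing at an adjusted p under 0.05 and 1153 at an unadjusted p under 0.05, and 1 member, Krt18, at the latter, by 0.75 (SE 0.27, adjusted p = 0.329). DESeq2 called none of the 4 either.

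The third question was whether the genes were also seen in spleen, where no tumor grew. Krt8 and Krt19 had 0 counts in all 4 PMN-MDSC libraries of untreated spleens, Krt18 had 2 and Msln 0, and a count of 0 allows for up to 3 counts, or 0.796 to 1.49 CPM by library. Against that limit in the shallowest library, Krt8 was at least 82.8-fold higher in tumor PMN-MDSC, Krt19 at least 48.2-fold and Msln at least 7.46-fold. Without tumor library 1 these limits were 55.4-fold, 31.6-fold and 4.81-fold, a choice made after seeing the data. For Krt18, the pooled counts of 792 and 2 gave a ratio of 579 with a 95% interval for counting error alone of 160 to 4786. Both spleen counts were in library 2, without which the fitted log2 difference of Krt18 was 11.09 in place of 8.82. Cdh1 was at 1.17 ± 0.87 CPM (SD, n = 4) in spleen and 82.9 ± 50.2 in tumor. Of 5 members tested, Krt8 (adjusted p = 4.1e-04), Krt18 (adjusted p = 3.8e-05) and Cdh1 (log2 difference 5.90, SE 0.60, adjusted p = 2.9e-05) were called higher in tumor and Krt7 lower, and 21.7% of 7971 genes were called. Krt19 was tested and had an adjusted p of 0.00262 in edgeR, and was called in DESeq2 (adjusted p = 2.3e-10). With low-count genes kept in the fit, Krt8 was not called (adjusted p = 0.0215). Krt8, Krt18, Krt19 and Cdh1 held 905, 792, 519 and 620 counts in tumor and 0, 2, 0 and 15 in spleen, so they passed the filter on low counts through the tumor libraries alone and their number supports nothing. Krt7, with 14 and 228 counts, passed through the spleen libraries. The same limit holds for the members tested between tumor and spleen in treated PMN-MDSC and in M-MDSC of both groups. Only 2 members were called without library 2 of spleen or library 2 of tumor, and the difference of Cdh1 came to 6.56 without spleen library 1.

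In treated mice the pattern of the keratins was the same in kind. Spleen PMN-MDSC held 5 counts of Krt8, 3 of Krt18 and 0 of Krt19 over 3 libraries, and Krt19 was at least 12.4-fold higher in tumor. Krt8, Krt18 and Krt19, the members that passed the filter through the tumor libraries, were called higher there, with 13.0% of 8031 genes called: Krt8 by 5.37 (SE 0.76, adjusted p = 6.7e-04), Krt18 by 6.19 (SE 0.61, adjusted p = 1.6e-04) and Krt19, with adjusted p = 4.5e-04. None of the 3 was called without spleen library 2 or spleen library 3, which left 2 libraries in that group, and 1 was without tumor library 1, 2 or 3. Without spleen library 2 the differences of Krt8 and Krt18 were 4.73 and 5.56, and without spleen library 1 they were 6.29 and 7.29.

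Spleen M-MDSC held traces of Krt8, Krt18 and Krt19 that came mostly from single libraries. In untreated spleens, library 3 had 9 counts of Krt8, 8 of Krt18 and 2 of Krt19, whereas the other 3 had 0, 1 to 3 and 0. In treated spleens, library 3 again stood apart with 18, 12 and 7 counts and 3 of Msln. Its keratins came to 0.258% of the bulk level. Library 4 of the treated group had 11 counts of Epcam and 26 of Cdh1, or 4.86 and 11.5 CPM, with only 3 keratin counts, so its Epcam level exceeded the mean of 1.20 ± 1.01 CPM in bulk tumor. In that library 9 markers of B and T lymphocytes summed to 144 CPM, against 11.5 to 18.3 CPM in the other 3. Their part in these values was not tested.

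Tumor M-MDSC were higher than spleen M-MDSC of untreated mice for Cdh1, by 5.47 (SE 0.33, adjusted p = 2.7e-07), and Krt18, by 4.78 (SE 0.74, adjusted p = 6.4e-04). With 8.60% of 8298 genes called these were 2 of 3 members tested, and Krt8 stood at 5.88 (SE 1.24, adjusted p = 0.00762). Krt18 was no longer called when any library but tumor library 1 was left out. Without spleen library 3 the differences of Krt18 and Krt8 came to 5.60 and 9.83. Cdh1 had an adjusted p of at most 8.4e-06 throughout. In treated mice 0 of 2 members tested were called (0.188% of genes), at 4.15 for Krt8 (SE 0.97, adjusted p = 0.0458) and 4.17 for Krt18 (SE 0.58, adjusted p = 0.00648). Both passed at an adjusted p under 0.05, as did 5.25% of genes, and DESeq2 called Krt18. Without treated spleen library 3 the differences of Krt8 and Krt18 came to 6.80 and 5.12. Cdh1 was too low to be tested there, with 110 counts in tumor against 42 in spleen, a pooled ratio of 3.10 (95% interval for counting error 2.16 to 4.54), compared with 38.7 (25.1 to 63.0) in untreated mice. Of the 42 counts, 26 were in spleen library 4, and without it, a choice made after seeing the data, the ratio was 6.502 (3.83 to 11.8).

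Whether the treatment difference of Cdh1 in M-MDSC differed between the compartments could not be settled. The difference in tumor minus that in spleen was -3.78 on the log2 scale (SE 0.82, adjusted p = 0.0458 in edgeR for the interaction, where 0.790% of 8730 genes passed at 0.05). Cdh1 passed the filter through untreated tumor M-MDSC, with 587 counts there against 110 in treated tumor and 21 and 42 in untreated and treated spleen. With each of the 15 libraries left out in turn, a choice made after seeing the data, it passed 0.05 in 2 fits, with differences of -4.09 to -2.69 and adjusted p-values of 0.0247 to 0.114, and without treated spleen library 4 it came to -2.69 (adjusted p = 0.0520). Spleen M-MDSC had 1.98 ± 1.17 CPM in untreated and 4.21 ± 4.86 in treated mice, the latter carried by library 4. In PMN-MDSC 0 of 4 members passed for the same question, where 3.50% of genes did, and spleen counts near 0 leave those estimates without precision.

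**Figure D5:**
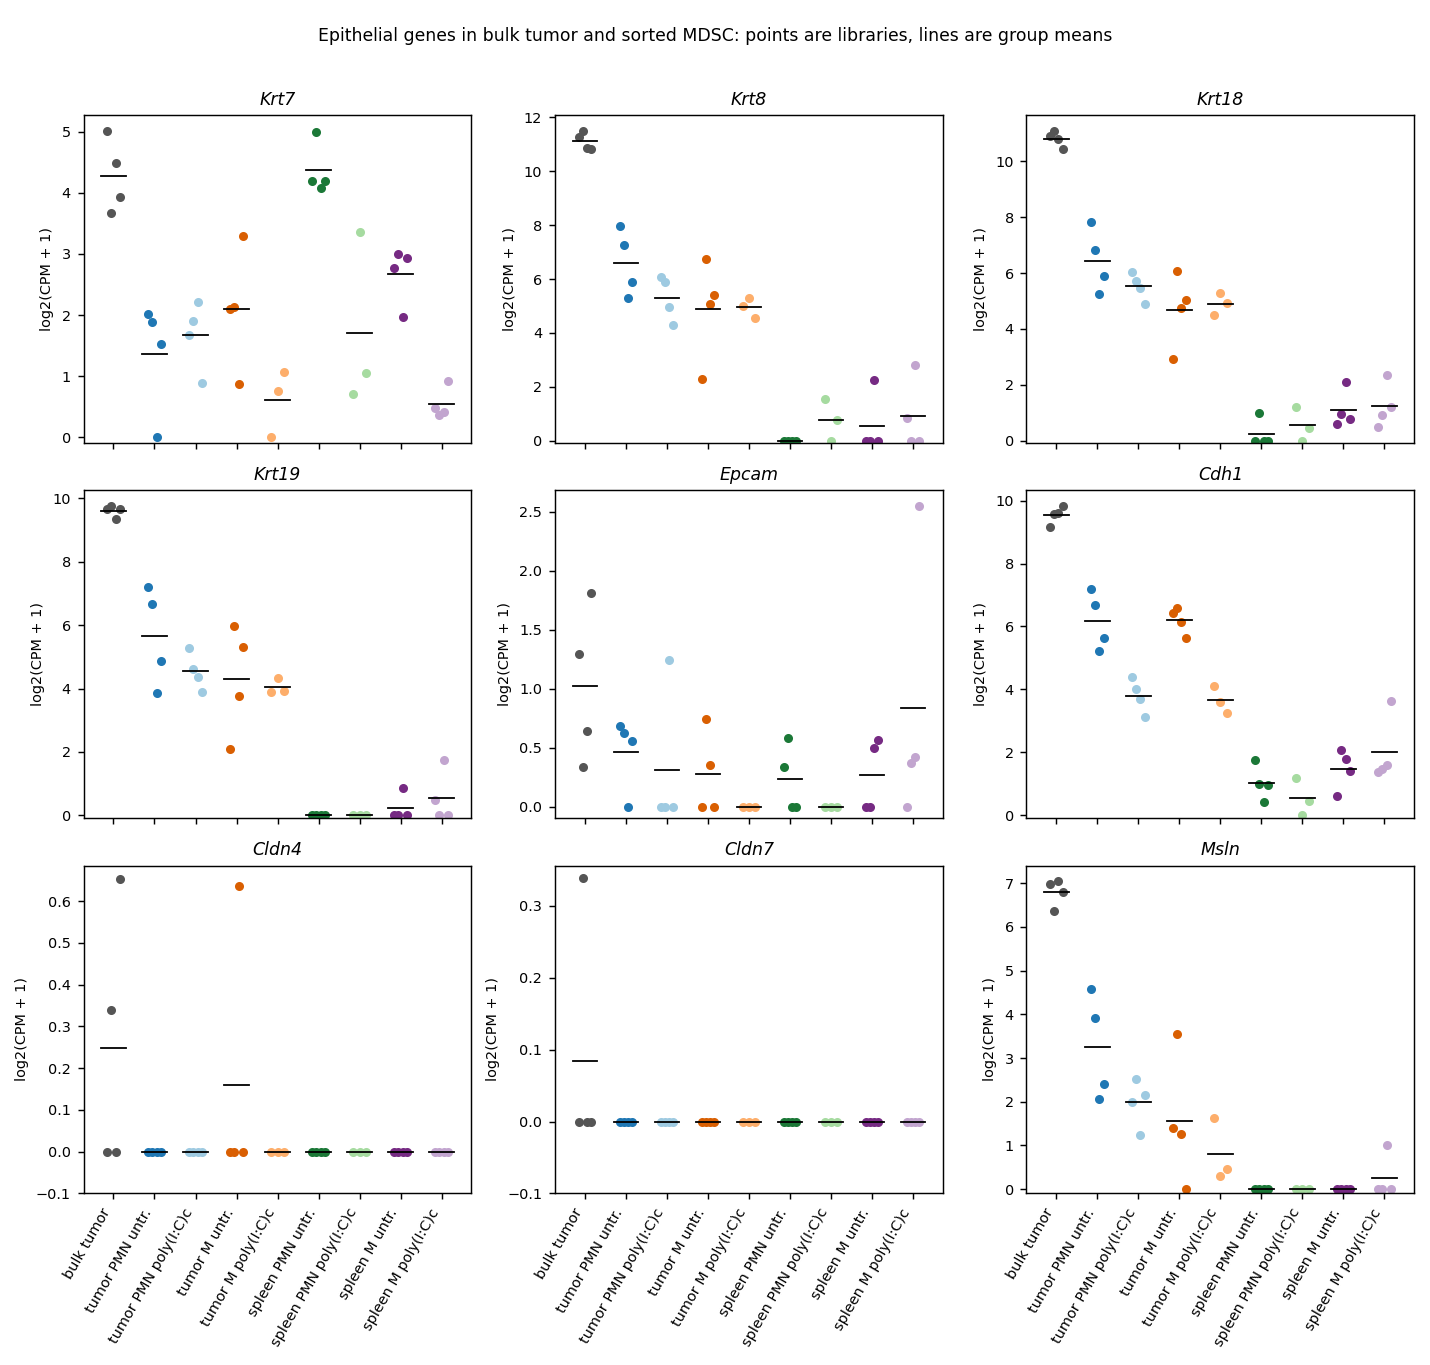
Level of each gene in every library used, as log2(CPM + 1), by group; points are libraries, lines group means, and each panel has its own scale. Krt8, Krt18, Krt19 and Msln fall from bulk tumor over tumor MDSC to values near 0 in spleen, Krt7 is as high in untreated spleen PMN-MDSC (103% on average) as in bulk tumor, and Cldn4 and Cldn7 are near 0 in all groups.

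Krt7 did not follow the other keratins. It was at 17.2, 30.9, 15.9 and 17.3 CPM in PMN-MDSC of untreated spleens, which is 103% ± 35.8 of the bulk tumor level, and at 3.03, 2.71, 0 and 1.90 CPM in PMN-MDSC of untreated tumors. The groups did not overlap, as for 54.5% of genes tested, and Krt7 was 12.3-fold lower in tumor (log2 difference -3.62, SE 0.58, adjusted p = 4.2e-04). Erythroid genes moved with it, with sums of 59.3 to 175 CPM in spleen and 0 to 16.8 CPM in tumor. So did the sums of neutrophil genes, at 12897 to 21409 and 996 to 3237 CPM, and of B and T lymphocyte genes, at 30.8 to 65.8 and 3.03 to 15.2 CPM. The sum of the 8 monocyte and macrophage genes was higher in tumor, at 738 to 1688 and 3619 to 4909 CPM. Of these, 5 were called higher in tumor and 1 lower (Ly6c2, named after its values were seen), where 21.7% of genes were called. The part of these cells in the level of Krt7 was not tested. In spleen M-MDSC it was at 5.80, 6.97, 2.90 and 6.67 CPM in untreated mice, a range that overlaps the 3.30, 3.37, 0.832 and 8.83 CPM of tumor M-MDSC. With no filter on low counts the difference was -0.53 (adjusted p = 0.534), beside erythroid sums of 28.3 to 60.5 CPM in spleen and 0 to 18.9 CPM in tumor. The counts there were 7 to 28 per library, so this level is above the limit that a count of 0 allows in each library.

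After poly(I:C)c Krt7 in spleen was low in most libraries. In spleen PMN-MDSC it was at 0.640, 9.28 and 1.08 CPM, all below the untreated range, where the groups did not overlap for 30.4% of 7261 genes, with a log2 difference of -2.06 (SE 0.76, adjusted p = 0.116). It passed the filter through the untreated libraries alone, with 228 counts in 4 of them against 29 in 3 treated ones. It was not called, where 0.0413% of genes were, and without treated library 2 the difference came to -4.16 (adjusted p = 0.0138). With low-count genes kept in the fit it was called, at -2.02 (adjusted p = 3.4e-04). In spleen M-MDSC the treated libraries held 1, 1, 1 and 2 counts, against 11, 15, 7 and 28 in the untreated ones, too few for the filter on low counts. With no filter the difference was -3.41 (adjusted p = 9.0e-05) and was called. Red cell markers moved with it: 6 erythroid genes, of which none was at 0 in all untreated libraries, summed to 59.3 to 175 CPM in untreated and 0.360 to 7.04 CPM in treated spleen PMN-MDSC, and to 28.3 to 60.5 and 0.675 to 3.16 CPM in spleen M-MDSC. In spleen PMN-MDSC, endothelial genes summed to 31.8 to 87.5 CPM in untreated and 11.2 to 15.96 in treated mice, lymphocyte genes to 30.8 to 65.8 and 9.61 to 24.1, and neutrophil genes to 12897 to 21409 and 22730 to 31767, each without overlap. At an adjusted p under 0.05 with the 2-fold minimum, 9.68% of genes tested passed in spleen PMN-MDSC. Of 8 monocyte and macrophage genes, 6 were lower and 1 higher by that limit, with a median of -2.31. The higher one was Ly6c2, named after its values were seen, at 63.3 ± 25.1 CPM (SD, n = 4) in untreated and 832 ± 218 (n = 3) in treated mice. In spleen M-MDSC, endothelial genes summed to 41.8 to 55.04 CPM in untreated and 139 to 309 CPM in treated mice, a difference of the sum and not of each gene. The treated PMN-MDSC library with the highest Krt7, library 2, had 0.743 CPM of erythroid genes. Their part in the level of Krt7 was not tested.

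The 9 genes can be summed up by the median share of bulk tumor over the members. It was 9.21% ± 6.67 (SD over the library medians, n = 4) in untreated and 2.60% ± 0.81 in treated tumor PMN-MDSC, and 3.72% ± 3.36 and 1.35% ± 0.23 (n = 3) in tumor M-MDSC. Single libraries weighed on the untreated values, which came to 6.05% in PMN-MDSC without its library 1, and in M-MDSC to 2.34% without its library 2 and 6.91% without bulk library 2. In spleen it was 0 in PMN-MDSC of both groups, 0.0413% ± 0.0826 in untreated and 0.0918% ± 0.131 in treated M-MDSC. These medians include Cldn4 and Cldn7, whose shares rest on 6 counts and 1 count in bulk tumor.

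Other genes with a like pattern were sought by Pearson's r between their log2(CPM + 1) and the mean of the 9 members, as a description. Over all 34 libraries and 9790 genes, where r mostly reflects the step from sorted cells to bulk tumor, the highest values were 0.989 for Gsta4, 0.986 for Tm4sf1 and Onecut2, 0.984 for Sox9 (a duct cell factor), 0.982 for Dmbt1 and Col18a1, 0.981 for Wwc1, 0.979 for Cavin1 and 0.977 for Fat1 and Hnf4a. Of the members, which are part of that mean, Krt19 had 0.985, Krt18 0.984, Krt8 0.979, Cdh1 0.957 and Msln 0.956, but Krt7 only 0.292. The 15 tumor MDSC libraries mix PMN-MDSC and M-MDSC of treated and untreated mice, so r there can also reflect these differences. Within them the highest were Onecut2 at 0.95, Fat1 at 0.942, Clu at 0.940, Dmbt1 at 0.908 and Gsta4 at 0.906. Then came Slc12a2 at 0.894, Col4a1 at 0.878, Fbln2 at 0.852, Krt20 at 0.848 and Dsp at 0.818. Krt19, Krt8 and Krt18 had 0.929, 0.898 and 0.884 there, and Cdh1 0.674.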

How the data were processed

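The authors deposited counts of fragments per gene, not normalized, in 1 table with a column per library. Per the study's methods, reads were mapped to mm10 with ContextMap using BWA, and fragments were counted by strand with featureCounts on Gencode v16; the submitters' processing notes name Subread 1.4.6-p3. Columns were assigned to groups by their names, which give no mouse. The sample titles number the mice, so the libraries of a group come from separate animals. Depth was 793070 to 4357105 counts in 30 sorted and 3771590 to 8886115 in 4 bulk libraries. Intervals were computed on counts pooled over libraries, so they cover counting error only and leave out the spread between mice. PCR reads carried no molecular identifiers, so repeated copies of a molecule can make even the counting error larger.

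From the deposited counts, CPM was computed over library totals, FPKM with summed exon length (GENCODE M21), and each CPM as a percent of the mean over the bulk libraries. Symbols were matched for 53274 of 53379 identifiers. Libraries with under 1000 counts were left out. As a check for duplicates, 0 of 48 pairs within groups were identical, and the lowest chi-square per degree of freedom was 6.19. Each of 12 comparisons was fitted on its own 2 groups over every gene averaging 25 counts or more (R 4.3.3, edgeR 4.0.16, TMM, robust quasi-likelihood F-test, two-sided, Benjamini-Hochberg). Called means an adjusted p under 0.001 and at least 2-fold, the study's thresholds. The study applied them in DESeq2, so calls here are not those of the study. For treatment in tumor PMN-MDSC and M-MDSC, edgeR called 20 and 1 genes, far fewer than the study reported. Alternatives were DESeq2 1.42.0, RLE, upper-quartile and library-total scaling, no filter on low counts, 1 fit of all 9 groups, an adjusted p under 0.05, and each library left out. The interaction terms, their fits, the fold limits and the pooled ratios with each library left out, list counts over genes averaging 25 counts in both groups, and a median share without the lowest members were added after the data were seen. The procedures were tested on simulated data. Genes named beside the members are up to 3 of each list with the highest CPM in bulk tumor and the 10 with the highest r; a few others were named after their values were seen and are marked so. The members and the lists were chosen with earlier results of these data known. Results that need the library with 10 counts were left out. Part of the genotype of the donor mouse of the cell line is not reported here.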

Additional observations from a re-analysis of the deposited data

Results flagged for a closer look

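In groups of 4 libraries, a single library far from the other 3 was looked for by Dixon's gap test in 37 sets of values. About 1 in 20 would be marked by chance if the values were normally spread. A set with 3 libraries at 0 counts, such as Krt8 in untreated spleen M-MDSC, is always marked. That rate therefore does not hold for sets near 0. The highest library stood apart for Msln in untreated tumor M-MDSC, at 10.8 CPM, and for Krt7 in untreated spleen PMN-MDSC, at 30.9 CPM. In untreated spleen M-MDSC, library 3 stood apart for Krt8, at 3.72 CPM, and Krt18, at 3.31 CPM. In treated spleen M-MDSC, library 3 stood apart for Krt8, at 6.08 CPM, and Krt19, at 2.36 CPM, and library 4 for Epcam, at 4.86 CPM, and Cdh1, at 11.5 CPM. The tests are not independent, since the same libraries recur.

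The treatment difference of Cdh1 in M-MDSC was -3.78 on the log2 scale in tumor relative to spleen by the interaction term (edgeR, adjusted p = 0.0458), with lower values after poly(I:C)c in all 3 tumor libraries and a spleen value carried by library 4. Cdh1 was tested there through the 587 counts of untreated tumor M-MDSC, and without treated spleen library 4 the value was -2.69 (adjusted p = 0.0520).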

How the results depend on the processing

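The number of members called was within 1.5 times that reported, or 0 in both, under DESeq2, the other scalings, no filter on low counts, 1 fit of all 9 groups, an adjusted p under 0.05 and each library left out, except as follows. For bulk tumor against PMN-MDSC it was 3 with no filter. For tumor against spleen M-MDSC of treated mice it was 1 with DESeq2 and with all groups in 1 fit, and 2 with no filter and at 0.05. For treatment in tumor PMN-MDSC and in tumor M-MDSC it was 1, Cdh1, with DESeq2, no filter, all groups in 1 fit and at 0.05, and for treatment in spleen PMN-MDSC and spleen M-MDSC it was 1, Krt7, with no filter. With 1 library left out it ranged from 2 to 5 for tumor against spleen PMN-MDSC of untreated mice, 1 to 2 for M-MDSC of untreated mice and 0 to 3 for PMN-MDSC of treated mice. The cause was not tested.

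With 1 library left out, the difference of Cdh1 between tumor PMN-MDSC and M-MDSC was -0.22 to 0.44, and the treatment differences of Krt18 and Krt8 in tumor M-MDSC were -0.56 to 0.41 and -1.06 to 0.17. The median share of bulk tumor came to 1.59% in treated tumor M-MDSC over the 7 members with over 3 counts in at least 2 bulk libraries, a choice made after seeing the data. By that choice it was 0.0138% in untreated spleen PMN-MDSC, 0.0302% in treated spleen PMN-MDSC and 0.225% in treated spleen M-MDSC. Against the median of the bulk libraries it was 0.00677% and 0.0149% in untreated and treated spleen PMN-MDSC, and with the counts of members summed 0.383% and 0.0984%, and 0.179% in untreated spleen M-MDSC. With 1 library left out it was 0% to 0.00737% and 0% to 0.0162% in these spleen PMN-MDSC groups. The median share in untreated tumor M-MDSC was 2.34% without its library 2, 6.91% without bulk library 2, 6.66% against the median of the bulk libraries and 1.65% with the median over its own libraries, and that in untreated tumor PMN-MDSC 6.05% without its library 1. Upper-quartile scaling moved the median log2 difference of all genes by 0.30, 0.20, 0.16, -0.15, 0.24 and -0.17 in bulk against PMN-MDSC and M-MDSC, tumor against spleen PMN-MDSC and M-MDSC of untreated and PMN-MDSC of treated mice, and treatment in spleen PMN-MDSC, and the library total by 0.29, 0.19, 0.14, -0.26, 0.45 and -0.31. No paired analysis was possible from the column names of the count table, because they give the group of a library but not its mouse. The columns also carry running numbers that follow the order of the sample titles. Mice were not assigned by that order, so pairing by it was not tested. Members under a mean of 25 counts were not tested, and a count of 0 in a spleen library leaves room for up to 3 counts.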
